A study of Mus musculus with 4 samples.

Results

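The replication-dependent histone genes encode the linker histone H1 and the core histones H2A, H2B, H3 and H4 that package newly made DNA. They were taken as the rows of the deposited count table whose GENCODE vM21 biotype is protein coding, whose symbol starts with Hist1, Hist2, Hist3 or Hist4, and which held at least 1 count over the 4 libraries. This gave 62 genes among 55421 identifiers, of which 25542 held a count. They comprised 6 H1, 16 H2A, 16 H2B, 11 H3 and 13 H4 genes. In the genome (GRCm38) 52 of them lie on chromosome 13, 7 on chromosome 3, 2 on chromosome 11 and 1 on chromosome 6. A further 5 histone genes of the table held 0 counts in every library and are no members: Hist2h2aa1, Hist2h2aa2, Hist1h2bq, Hist1h2br and Hist2h3c1. Just inside the limit, Hist1h2ba and Hist1h4m held a total of 1 count each, Hist1h2aa 2 and Hist1h1t 3.

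The libraries came from E14 mouse embryonic stem cells, a line of 129/Ola background derived from the blastocyst. The 2 knockout libraries (KO) came from cells without the miR-290-295 cluster, the main embryonic stem cell-specific microRNA cluster of the mouse, and the 2 wild-type libraries (WT) from cells that carry it. Both were grown on gelatin in DMEM with 15% serum, 100 U/ml LIF and 0.1 mM beta-mercaptoethanol, with no age or time point. Per the design text each genotype was run as biological duplicates. Separate clones are not mentioned for KO, so the spread behind each p-value is that between these 4 libraries and may be technical. At the cluster, the microRNA gene Mir295 (chr7:3220773-3220841, plus strand) held 0 and 0 counts in KO libraries 1 and 2, against 80 and 22 in WT libraries 1 and 2. Depth was 12726123 and 11764868 counts in the KO libraries, against 12163759 and 9925557 in the WT libraries. Embryonic stem cell markers summed to 3927 and 3979 CPM (counts scaled to library size) in KO, against 4022 and 4254 CPM in WT. Of these 10 markers 2 were lower in KO, Klf4 (log2 -1.59, edgeR adjusted p = 0.00235) and Utf1 (log2 -0.91, adjusted p = 0.00568), while Dppa5a and Sox2 were at 0.50 and 0.44 (adjusted p = 0.0668 and 0.0909). Primitive endoderm markers summed to 24.2 and 20.7 CPM in KO against 163 and 177 CPM in WT, and fibroblast or feeder markers to 18.4 and 29.8 CPM against 46.2 and 68.5 CPM.

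Replication-dependent histone mRNAs are made in S phase, when the genes are transcribed in the histone locus body under the coactivator NPAT. They are the only known animal mRNAs that normally lack a poly(A) tail. Their 3' end is formed by a cut just after a short stem-loop, which is held by the stem-loop binding protein SLBP and recognised with the help of the U7 small nuclear RNA. Some of these genes can also give a longer mRNA that runs past the stem-loop to a poly(A) site. The libraries here were made with QuantSeq 3' FWD, which primes on poly(A), so each count is a tag that needed either a poly(A) tail or an A-rich stretch. The counts therefore cover whatever part of the histone mRNA such priming reached, and in bulk cells fewer cells in S phase and less RNA per cell cannot be told apart.

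The stem-loop was read from the GENCODE vM21 transcripts (GRCm38) as a 6-base stem closing a 4-base loop within 150 bases after the stop codon. The first arm had to begin with GG and end with CT, and G-T pairs were allowed in the stem. Such a stem-loop was present in 43 of the 62 members. These were 91.5% of the 47 members with at least 30 annotated bases after the stop codon, against 0.588% of 16316 other protein-coding genes with a count. The members that the values below turn on are shown with the stem-loop in capitals and up to 5 flanking bases on each side, 5′ to 3′ on the coding strand.
Hist1h1e: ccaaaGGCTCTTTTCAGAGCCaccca
Hist1h2ae: acaaaGGCTCTTTTCAGAGCCattca
Hist1h2ag: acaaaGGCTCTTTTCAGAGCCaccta
Hist1h2bk: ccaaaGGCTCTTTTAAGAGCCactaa
Hist1h2bj: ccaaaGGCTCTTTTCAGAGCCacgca
Hist1h3c: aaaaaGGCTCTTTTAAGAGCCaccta
Hist1h3d: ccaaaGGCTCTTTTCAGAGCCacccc
Hist1h4i: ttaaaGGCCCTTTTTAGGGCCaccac
Hist1h4d: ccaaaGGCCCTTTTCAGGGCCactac
Hist1h4b: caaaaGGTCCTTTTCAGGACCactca
Hist2h4: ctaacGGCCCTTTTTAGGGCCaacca
The coordinates of these windows are on GRCm38, with the number of annotated bases that follow the stem-loop. Hist1h1e lies at chr13:23621777-23621802 (minus strand, 1153 bases after it). Hist1h2ae lies at chr13:23570663-23570688 (minus strand, 151 bases after it). Hist1h2ag lies at chr13:22042478-22042503 (minus strand, 23 bases after it). Hist1h2bk lies at chr13:22036295-22036320 (plus strand, 30 bases after it). Hist1h2bj lies at chr13:22043633-22043658 (plus strand, 23 bases after it). Hist1h3c lies at chr13:23745042-23745067 (minus strand, 74 bases after it). Hist1h3d lies at chr13:23576239-23576264 (plus strand, 752 bases after it). Hist1h4i lies at chr13:22040961-22040986 (minus strand, 330 bases after it). Hist1h4d lies at chr13:23581945-23581970 (plus strand, 770 bases after it). Hist1h4b lies at chr13:23757361-23757386 (plus strand, 28 bases after it). Hist2h4 lies at chr3:96262934-96262959 (minus strand, 1257 bases after it).

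The 43 stem-loops had 8 different sequences and began 21 to 54 bases after the stop codon, with a median of 31. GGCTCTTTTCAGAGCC was carried by 23 members, of which 3 were H1, 8 H2A, 8 H2B and 4 H3 genes, and by 0 H4 genes. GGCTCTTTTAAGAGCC was carried by 6 members, among them Hist1h2bk and Hist1h3c. The 12 H4 stem-loops had other stems, and 7 of the 12 had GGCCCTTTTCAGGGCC. Hist1h2bc, the H2B gene with the most counts, has 2 exons, 742 bases after the stop codon, a poly(A) signal (AATAAA or ATTAAA), and no stem-loop in the window.

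The annotated 3' ends fell into short and long ones. The median member had 89.5 annotated bases after the stop codon, against 1073 in the other protein-coding genes. A poly(A) signal, read as AATAAA or ATTAAA anywhere after the stop codon, was found in 19 members. This was 40.4% of the 47, against 92.9% of the other genes, with no matching for the length searched. At 150 bases or more after the stop codon there were 25 members, of which 23 had a stem-loop and 18 a poly(A) signal, and under 150 bases there were 37, of which 20 had a stem-loop. The 150-base limit was chosen after the data were seen. As many as 59 members have a single exon. The longest run of A in the transcript had a median of 4 bases, against 6 in the other genes, with no matching for transcript length.

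Near-identical copies limit what the counts of single genes mean. The share of a member's 50-base words found in no other transcript had a median of 50.6%, with class medians of 98.9% in H1, 34.04% in H2A, 56.0% in H2B, 39.6% in H3 and 60.5% in H4. It was under 10% in 8 members. Of the 5 genes at 0 counts, Hist2h2aa1, Hist2h2aa2 and Hist2h3c1 had 0% unique words, and Hist1h2bq and Hist1h2br had 2.68% and 11.3%. The members Hist2h3b and Hist2h2bb also had 0% unique words and held totals of 71 and 22 counts. How reads that match several genes were counted, and whether strand was used, is not given in the sources used here. All 16 H2A members and 3 others overlap a gene annotated on the other strand, and 5 members overlap one on the same strand. Among these 5 are Hist1h1e, with Gm11398 and Hist1h2be, and Hist3h2a, with Trim17. Counts can therefore be shared among copies and overlapping genes.

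The members together took 0.0170% and 0.0166% of all counts in the KO libraries (95% Wilson intervals 0.0163 to 0.0178% and 0.0159 to 0.0173%), against 0.0195% and 0.0265% in the WT libraries (0.0187 to 0.0203% and 0.0255 to 0.0275%). The intervals hold counting error alone, as no molecular identifiers tell molecules from copies of them. Their summed level was 170.5 and 166.6 CPM in KO, against 197.9 and 261.7 CPM in WT. The KO libraries lay within a few percent of each other and below both WT libraries, which lay further from each other than WT library 1 lay from either KO library. The means were 168.5 ± 2.79 CPM in KO and 229.8 ± 45.1 CPM in WT (SD, n = 2 each), a log2 ratio of -0.45 with no test. The position of WT library 1 above KO rested on Hist1h2bc and Hist1h3d, which held 39.7 and 17.8 CPM there. Without both genes, WT library 1 lay below both KO libraries.

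By class, the H2B sum had the lowest ratio of KO to WT and the H2A sum the one nearest to 0. H2B genes summed to 34.6 and 29.7 CPM in KO, against 55.3 and 51.0 CPM in WT, a log2 ratio of -0.73. H4 genes summed to 21.2 and 23.0 CPM in KO, against 28.0 and 37.4 CPM in WT, a log2 ratio of -0.56. H3 genes summed to 28.8 and 26.6 CPM in KO, against 33.0 and 39.7 CPM in WT, a log2 ratio of -0.39. For these classes both KO libraries were below both WT libraries, but this rested on 1 member of each, high in WT library 1. There Hist1h2bc held 39.7 of the 55.3 CPM of H2B, Hist1h3d 17.8 of the 33.0 of H3 and Hist1h4i 11.3 of the 28.0 of H4. Without these members the groups overlapped in each class. H2A genes summed to 42.3 and 39.6 CPM in KO, against 42.6 and 54.7 CPM in WT, a log2 ratio of -0.25, and here KO library 1 was level with WT library 1. H1 genes summed to 43.5 and 47.7 CPM in KO, against 39.0 and 78.9 CPM in WT, so that the KO libraries lay between the WT libraries. The H1 log2 ratio was -0.37, and without WT library 2 it was 0.23. These are sums over members with no test, and whether the classes differ from each other was not tested.

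**Figure D1:**
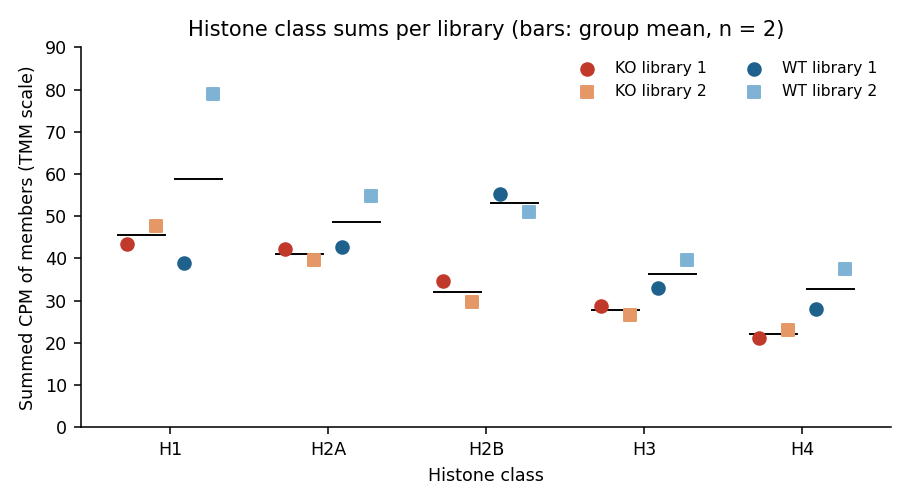
Summed CPM (TMM scale) of the members of each histone class in each library, KO left of WT within a class, with black bars at the group means (n = 2 each). Both KO libraries lie below both WT libraries for H2B, H3 and H4, which rests on 1 member of each class, high in WT library 1. For H2A, KO library 1 (42.3 CPM) is level with WT library 1 (42.6 CPM). For H1 the KO libraries (43.5 and 47.7 CPM) lie between the WT libraries (39.0 and 78.9 CPM).

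Gene by gene, no member was called. After the filter on low counts 43 members were tested, and 0 were higher and 0 lower in KO (edgeR quasi-likelihood test, Benjamini-Hochberg adjusted p under 0.05 over 14427 genes). Of all tested genes 7.42% were called higher and 4.96% lower in KO. At an unadjusted p under 0.05 there were 4 members, all lower, against 28.2% of all genes. Without WT library 1 there were 18 of 51 members, all lower, against 29.1% of all genes, without WT library 2 there were 5 of 46, of which 4 were lower, against 29.4%, and with no filter there were 8 of 62, all lower, against 19.8%. Without KO library 2 there was 1 of 50, against 17.9%. The DESeq2 test also called 0 members, where 7.62% of genes were higher and 4.96% lower, with 2 members at an unadjusted p under 0.05. The other 19 members did not pass the filter and held at most 18 counts in any library. The median log2 fold change of the 43 was -0.60, with 38 below 0, against -0.006 and 50.5% below 0 over all tested genes. The libraries of the groups did not overlap for 7 members lower in KO and 1 higher in KO, or 8 of the 43, while 28.5% of all tested genes were lower and 29.4% higher without overlap.

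The class medians of the log2 fold change lay close together. They were -0.66 over 5 H1 genes, -0.59 over 10 H2A genes, -0.67 over 11 H2B genes, -0.48 over 8 H3 genes and -0.54 over 9 H4 genes. Values were below 0 in 5 of 5, 8 of 10, 10 of 11, 7 of 8 and 8 of 9 of them. The direction of these medians depended on 1 library. With KO set against WT library 1 alone, the median log2 ratio of the 43 was 0.17 for KO library 1 and 0.24 for KO library 2, and 15 and 14 members were below 0. Against WT library 2 alone, the medians were -1.01 and -0.96, and 39 and 36 members were below 0.

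Under the other settings the members' calls were as few. With no filter on low counts Hist1h1a and Hist1h2bc were called lower, 2 of 62 members, where 6.23% of genes were higher and 4.67% lower. None was called with DESeq2 size factors (7.33% of genes higher and 4.73% lower), with small non-coding and mitochondrial genes left out (7.43% and 4.67%) or with the replicate number as a block (4.42% and 2.56%). None was called without KO library 1 (3.84% and 1.87%) or KO library 2 (3.64% and 2.09%). Without WT library 1, Hist1h1a and Hist1h1d were called lower (8.69% and 6.21%), and without WT library 2, Hist1h2bc and Hist1h3d were (9.68% and 6.63%), so that different genes passed with each WT library.

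**Figure D2:**
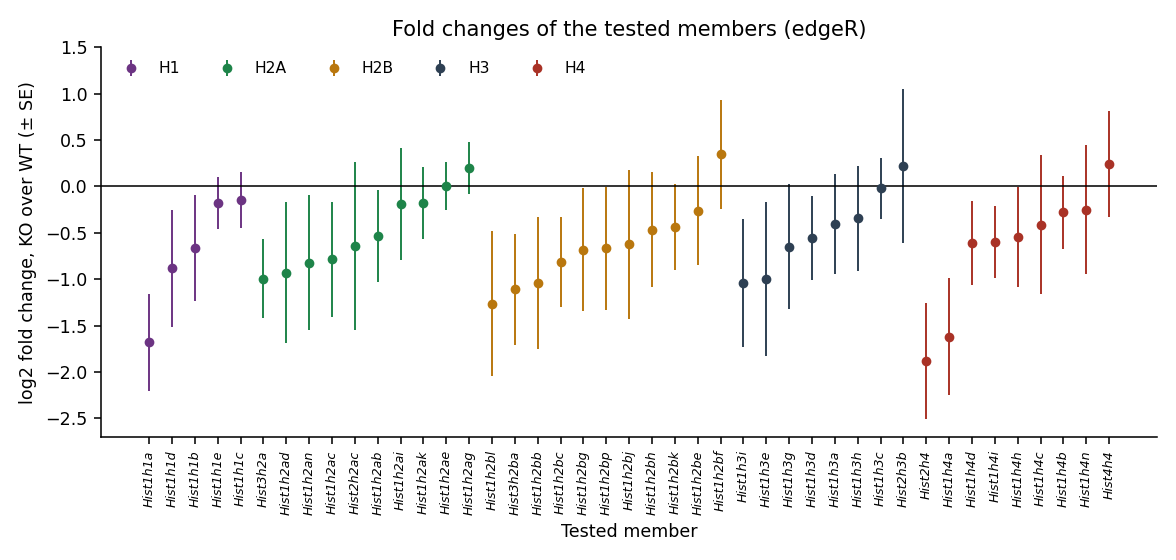
Log2 fold change, KO over WT, of each of the 43 tested members with its standard error (edgeR, n = 2 libraries each), grouped by class and sorted within it. Of the 43 values 38 are below 0, the lowest is Hist2h4 at -1.88 and the highest Hist1h2bf at 0.35, and no member passed the test.

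The linker histones bind the DNA that enters and leaves the nucleosome. Hist1h1e, which encodes H1.4, held 42.5% of the H1 counts, with 18.3 and 23.0 CPM in KO against 17.7 and 29.1 CPM in WT. Hist1h1c, which encodes H1.2, had 15.0 and 17.6 CPM in KO against 13.0 and 23.1 CPM in WT. For both, the KO libraries lay between the WT libraries, with log2 fold changes of -0.18 (SE 0.28, edgeR adjusted p = 0.729) and -0.15 (SE 0.30, adjusted p = 0.798). Both have a long annotated 3' end, of 1209 and 880 bases after the stop codon.

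The other tested H1 genes had WT library 2 far above WT library 1. Hist1h1b (H1.5) had 5.43 and 2.65 CPM in KO against 3.0 and 9.95 CPM in WT, and its KO libraries also differed by more than 2-fold. Hist1h1d (H1.3) had 2.44 and 2.82 CPM in KO against 1.75 and 8.06 CPM in WT. Hist1h1a (H1.1) had 2.12 and 1.62 CPM in KO against 3.51 and 8.65 CPM in WT, with both KO libraries below both WT libraries. Its log2 fold change of -1.68 (SE 0.52) had the smallest adjusted p of all members, 0.0655, and did not pass. Without WT library 1, Hist1h1a (log2 -2.20, adjusted p = 0.00686) and Hist1h1d (log2 -1.62, adjusted p = 0.0282) passed. Without WT library 2, Hist1h1a was at -0.90 (adjusted p = 0.344) and Hist1h1d at 0.58 (adjusted p = 0.597).

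H2A and H2B pair as dimers on the outer faces of the nucleosome core. Among the H2A genes, Hist1h2ae had 11.5 and 12.1 CPM in KO against 11.8 and 11.7 CPM in WT. These 4 values were the closest of any of the 15 members with the highest CPM of their class, and its log2 fold change was 0.01 (SE 0.26, adjusted p = 0.992). Hist1h2ag had 10.2 and 9.98 CPM in KO against 8.43 and 9.15 CPM in WT. It was the 1 tested member with both KO libraries above both WT libraries, with a log2 fold change of 0.20 (SE 0.28, adjusted p = 0.704). Hist3h2a, on chromosome 11 and with 1700 bases after its stop codon, had 6.06 and 2.82 CPM in KO against 10.6 and 7.16 CPM in WT. Its libraries did not overlap and its log2 fold change was -0.998 (SE 0.43, adjusted p = 0.161). The gene shares bases with Trim17 on the same strand, so its counts may include tags of Trim17. Hist1h2ae, Hist1h2ag and Hist3h2a held 62.8% of the H2A counts.

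Among the H2B genes, Hist1h2bc held 47.5% of the counts. It had 16.1 and 12.5 CPM in KO (204 and 147 counts) against 39.7 and 10.4 CPM in WT (476 and 105 counts). WT library 1 was far above the other 3 libraries, and WT library 2 was the lowest. The log2 fold change was -0.82 (SE 0.49, adjusted p = 0.315), and without WT library 2 it was -1.47 with an adjusted p of 0.000494, while without WT library 1 it was 0.45. Hist1h2bk and Hist1h2bj went the other way within WT. Hist1h2bk had 5.43 and 4.95 CPM in KO against 3.84 and 10.3 CPM in WT, and Hist1h2bj had 2.05 and 1.37 CPM in KO against 0.584 and 4.78 CPM in WT. For both genes the KO libraries lay between the WT libraries, and the adjusted p-values were 0.591 and 0.666.

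H3 and H4 form the central tetramer of the nucleosome and carry most of the modified tails. Hist1h3c had 11.1 and 9.81 CPM in KO against 7.85 and 13.4 CPM in WT, with a log2 fold change of -0.02 (SE 0.33, adjusted p = 0.978). Hist1h3d had 8.18 and 7.94 CPM in KO (104 and 93 counts) against 17.8 and 5.87 CPM in WT (213 and 59 counts), the same order of libraries as Hist1h2bc. Its log2 fold change was -0.56 (SE 0.45, adjusted p = 0.469), and without WT library 2 it was -1.14 with an adjusted p of 0.0153, while without WT library 1 it was 0.45 (adjusted p = 0.467). Without WT library 2 the members' median was 0.24, with 12 of 46 below 0. Hist1h3a had 1.73 and 2.13 CPM in KO against 1.67 and 3.48 CPM in WT.

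Among the H4 genes, Hist1h4i had 5.27 and 5.97 CPM in KO against 11.3 and 5.67 CPM in WT, so that WT library 1 alone was high. Hist1h4d had 4.80 and 4.95 CPM in KO against 4.26 and 10.7 CPM in WT, and Hist1h4b had 4.25 and 4.10 CPM in KO against 4.01 and 6.17 CPM in WT. In these genes WT library 2 alone was high. Their adjusted p-values were 0.359, 0.421 and 0.698. Hist2h4, from the chromosome 3 cluster, held 8 and 4 counts in KO against 19 and 21 in WT, and Hist1h4a held 9 and 6 in KO against 15 and 26 in WT. Both had no overlap between groups, with log2 fold changes of -1.88 (SE 0.63, adjusted p = 0.0813) and -1.62 (SE 0.64, adjusted p = 0.130). Hist2h4 and Hist1h4a fall outside the naming rule and were picked for these values.

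**Figure D3:**
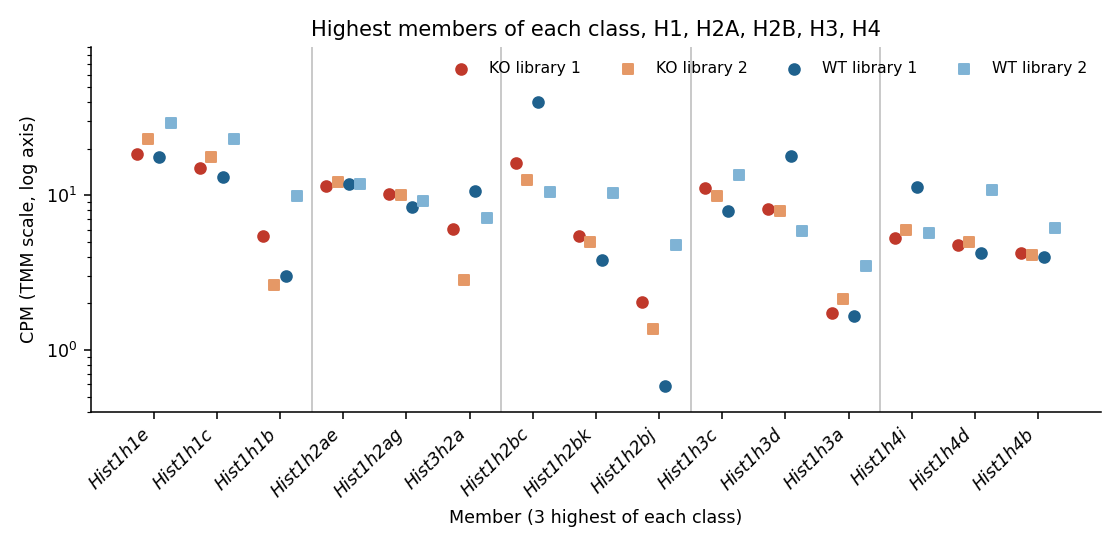
Level (CPM, TMM scale, log axis) of the 3 members with the highest mean in each class, one point per library, KO left of WT, with vertical lines between the classes. WT library 1 is the highest point in Hist3h2a, Hist1h2bc, Hist1h3d and Hist1h4i. WT library 2 is the highest in Hist1h1e, Hist1h1c, Hist1h1b, Hist1h2bk, Hist1h2bj, Hist1h3c, Hist1h3a, Hist1h4d and Hist1h4b, while the 4 libraries of Hist1h2ae lie between 11.5 and 12.1 CPM.

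The WT pair differed by more than 2-fold in a larger share of the members than of other genes. WT library 2 exceeded WT library 1 in 36 of the 43 tested members, with a median log2 ratio of 1.10, against 50.5% of 14384 other genes and a median of 0.007. The pair differed by more than 2-fold in 26 members, or 60.5%, against 10.8% of the other genes. In the KO pair, library 2 exceeded library 1 in 21 of the 43, with a median log2 ratio of -0.009, and 5 members, or 11.6%, differed by more than 2-fold, against 7.50% of the other genes. Low counts widen such ratios, so the genes were also split at a mean of 5 CPM. Within each part they were not matched for level, and the upper part had no upper limit. At a mean of 5 CPM or more, the WT pair differed by more than 2-fold in 5 of 12 members, or 41.7%, against 4.62% of other genes, and under 5 CPM in 21 of 31, or 67.7%, against 26.6%. In the KO pair the shares at 5 CPM or more were 2 of 12 members, or 16.7%, against 1.58% of other genes, and under 5 CPM 3 of 31, or 9.68%, against 22.7%. The gene-wise dispersion of edgeR lay above its trend in 30 of the 43 members, or 69.8%, against 30.3% of the other genes.

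The WT pair was also set out by annotated 3' end, and WT library 2 was the higher in most members of both kinds. Of the 23 tested members with under 150 bases after the stop codon, WT library 2 was above WT library 1 in all 23, with log2 ratios of 0.10 to 3.71 and a median of 1.58. Of the 20 with 150 bases or more it was above in 13, with log2 ratios of -1.93 to 2.58 and a median of 0.77. The 2 members with WT library 1 more than 2-fold higher, Hist1h2bc and Hist1h3d, both belong to the longer kind. In the KO pair, library 2 was above in 10 of the 23 and 11 of the 20. Summed over all 37 members with the shorter ends, the level was 69.4 and 63.5 CPM in KO, against 54.1 and 121.4 CPM in WT. Summed over the 25 with the longer ends, it was 101.1 and 103.1 CPM in KO, against 143.8 and 140.4 CPM in WT. The like WT totals of the longer kind were made of opposite shifts. On the log2 scale WT library 2 over WT library 1 was 0.89 for the sum of H1 genes with longer ends and 0.31 for H4, against -1.05 for H2B, -0.96 for H3 and -0.12 for H2A. Hist1h2bc (476 and 105 counts in WT libraries 1 and 2) and Hist1h3d (213 and 59) were on the side of WT library 1. The WT totals of the shorter kind were more than 2-fold apart, and WT library 2 was the higher in every class. The log2 ratios of the group means were -0.40 and -0.48 for the shorter and the longer ends. By level, WT library 2 was above in 29 of 31 tested members under 5 CPM, with a median log2 ratio of 1.58. At 5 CPM or more it was above in 7 of 12, with a median of 0.42. No test was made of either split, and 3' end and level were not told apart.

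**Figure D4:**
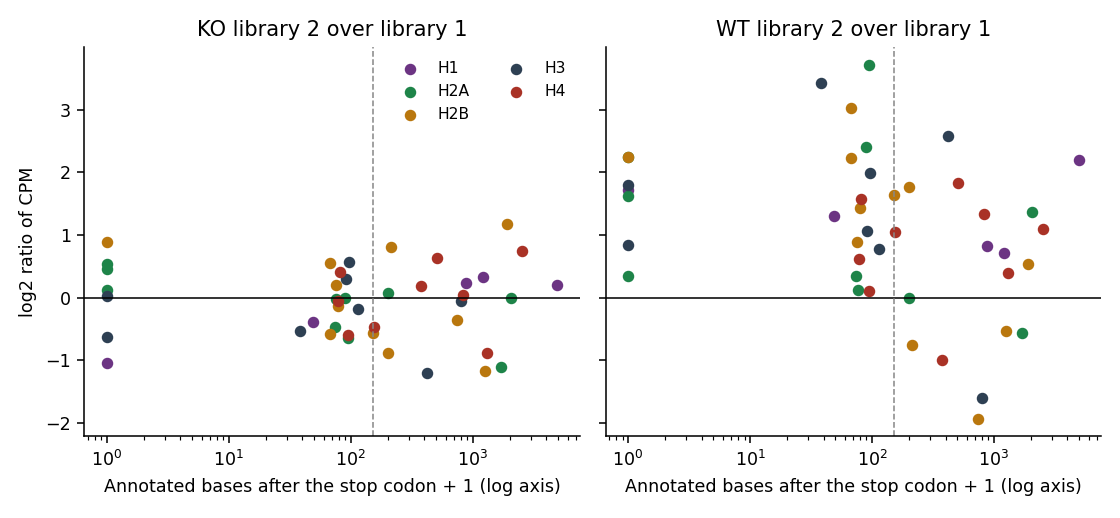
Log2 ratio of library 2 over library 1 for each tested member within KO (left) and within WT (right), against its annotated bases after the stop codon plus 1 (log axis), coloured by class, with the dashed line at 150 bases. Left of the line all 23 members lie above 0 in the WT pair and 10 of 23 in the KO pair.

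Other RNA classes that normally lack a poly(A) tail are given beside these values. Small nucleolar RNA genes, of which 212 held a count, summed to 333.7 and 306.4 CPM in KO, against 1087 and 1046 CPM in WT, so both WT libraries were high. Small nuclear RNA genes, of which 267 held a count, summed to 77.0 and 83.0 CPM in KO, against 88.1 and 114.4 CPM in WT. The sum of S phase and cyclin E genes was 5838 and 5904 CPM in KO, against 5718 and 6066 CPM in WT, and their median log2 ratio of WT library 2 over WT library 1 was 0.04. The part of RNA quality, priming or cell cycle in the histone values was not tested.

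The members lie in a few clusters, taken as runs with gaps of under 100000 bases. On chromosome 13, 29 members lie in chr13:23531050-23764406 and 16 in chr13:21715763-21833507, with 5 in chr13:22035164-22043676 and 2 in chr13:23933773-23934851. The 29 summed to 113.4 and 115.5 CPM in KO, against 139.6 and 169.5 CPM in WT, a log2 ratio of -0.43. Hist1h2bc held 39.7 of the 139.6 CPM in WT library 1, and without it the groups overlapped. The 16 summed to 20.1 and 17.8 CPM in KO, against 15.5 and 38.7 CPM in WT, so that the KO libraries lay between the WT libraries and the log2 ratio of -0.52 rested on WT library 2. The 5 summed to 23.4 and 23.0 CPM in KO, against 24.2 and 30.9 CPM in WT, a log2 ratio of -0.25. Of the 24.2 CPM in WT library 1 Hist1h4i held 11.3, and without it the groups overlapped. The 7 members of the chromosome 3 cluster (chr3:96219865-96270132) summed to 5.19 and 3.41 CPM in KO, against 4.26 and 11.2 CPM in WT, and their log2 ratio of -0.85 also rested on WT library 2. Hist3h2a and Hist3h2ba on chromosome 11 (chr11:58948920-58956830) summed to 6.69 and 3.93 CPM in KO, against 12.9 and 8.56 CPM in WT, a log2 ratio of -1.02 with no overlap. Hist4h4, the 1 member on chromosome 6, overlapped between groups, with 1.73 and 2.90 CPM in KO against 1.25 and 2.69 CPM in WT and a log2 ratio of 0.23. The cluster of 2 held at most 1 count per library.

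Many H2A and H2B genes are arranged head to head around a shared promoter. Start sites on opposite strands lay 176 to 306 bases apart in 10 pairs of members, each an H2A with an H2B gene, and in 6 of them both genes were tested. In 3 of the 6, 1 partner was near level or lower in WT library 2 while the other was higher, with no limit set. Hist1h2ae had a log2 ratio of WT library 2 over WT library 1 of -0.004 and its partner Hist1h2bg 1.77. Hist1h2ag had 0.12 and its partner Hist1h2bj 3.03. Hist1h2ac had 1.37 and its partner Hist1h2bc -1.93. For the other pairs of tested genes both values were 0.89 or more, though partners also differed. They were 0.89 for Hist1h2bf with 2.40 for Hist1h2ad, 2.25 for Hist1h2an with 1.63 for Hist1h2bp, and 2.25 for Hist1h2bl with 1.62 for Hist1h2ai.

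Among pairs whose H2B gene had a matched RefSeq promoter, Hist1h2ae and Hist1h2bg had the highest summed mean CPM. The promoter between them is shown. It is the RefSeq promoter of Hist1h2bg (GRCm38.p6, chr13:23571150-23571449, plus strand), with capitals for each match to a CCAAT box, a TATAAA box or the octamer ATTTGCAT on either strand.
Hist1h2bg: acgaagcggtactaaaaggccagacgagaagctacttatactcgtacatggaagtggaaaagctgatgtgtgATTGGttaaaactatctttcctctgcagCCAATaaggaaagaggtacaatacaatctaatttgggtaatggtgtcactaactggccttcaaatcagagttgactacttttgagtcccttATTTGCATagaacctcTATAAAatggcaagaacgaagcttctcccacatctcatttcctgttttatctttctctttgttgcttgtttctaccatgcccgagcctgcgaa
On the plus strand CCAAT starts at base 101, the octamer at base 192 and TATAAA at base 208, and on the minus strand a CCAAT lies at bases 73 to 77. RefSeq promoters of 300 bases were found for 57 of the 62 members. CCAAT was present in 48 of the 57, or 84.2%, against 37.9% of 27025 promoters, and it was in every matched H1, H2A, H2B and H3 promoter and in 3 of 12 H4 promoters. TATAAA was in 34 of the 57, or 59.6%, against 14.2%. The octamer was in 13 of the 57, or 22.8%, against 1.75%, and its matches were in 7 of 16 H2A and 6 of 14 H2B promoters. Promoters of head-to-head partners can cover the same bases, so a single site can be counted for both partners. The motifs do not overlap each other in the promoter shown, and a match is a description of the sequence.

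Next came the genes that process and degrade histone mRNA. Of 24 tested, 0 passed in either direction (edgeR, with 7.42% of all genes higher and 4.96% lower), and their median log2 fold change was -0.08. Npat, the coactivator of histone transcription, had the smallest adjusted p, with 43.3 and 42.3 CPM in KO against 68.8 and 61.1 CPM in WT. Its log2 fold change was -0.60 (SE 0.17, adjusted p = 0.0527). Slbp, which binds the stem-loop, had 13.2 ± 0.353 CPM in KO and 22.7 ± 1.6 CPM in WT (SD, n = 2 each), a log2 fold change of -0.78 (SE 0.23, adjusted p = 0.0549). For both genes the KO libraries were below both WT libraries, and both just missed the threshold. Without WT library 2 Npat passed (-0.68, adjusted p = 0.0193), and without WT library 1 Slbp passed (-0.86, adjusted p = 0.0371). Lsm1, of the ring that starts 5' decay, and Cpsf3, the nuclease that cuts histone pre-mRNA, had log2 fold changes of -0.44 and -0.38 and adjusted p-values of 0.130 and 0.137.

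Replacement histones are made outside S phase from polyadenylated mRNAs. Of 11 tested, 1 was higher and 0 lower in KO (all genes 7.42% and 4.96%), with a median log2 fold change of 0.24. H2afy, which encodes macroH2A1, was higher, at 474 ± 71.5 CPM in KO and 261 ± 46.4 CPM in WT, a log2 fold change of 0.86 (SE 0.17, adjusted p = 0.0144), and the call was lost without KO library 1 (0.71, adjusted p = 0.0940). H2afx, the damage-signalling H2A.X whose mRNA can end at a stem-loop or in a poly(A) tail, had 329 and 339 CPM in KO against 646 and 420 CPM in WT, with an adjusted p of 0.0525. H2afj had 31.4 and 30.6 CPM in KO against 79.9 and 39.1 CPM in WT, with an adjusted p of 0.0690. Both had WT library 1 high, as had Hist1h2bc. Without WT library 2 both passed, at -0.95 (adjusted p = 0.000238) for H2afx and -1.37 (adjusted p = 0.000117) for H2afj. Without WT library 1 they were at -0.33 (adjusted p = 0.137) and -0.34 (adjusted p = 0.307). H3f3a, one of the H3.3 genes, had a log2 fold change of 0.45 and an adjusted p of 0.117.

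Among histone chaperones 1 of 22 was higher and 0 lower (all genes 7.42% and 4.96%), with a median of -0.08. Ubn1, of the HIRA complex that deposits H3.3, was higher, at 142 ± 14.9 CPM in KO and 86.7 ± 7.75 CPM in WT (log2 0.71, SE 0.16, adjusted p = 0.0228). Without KO library 1 its adjusted p was 0.0673, and without KO library 2 it was 0.213. Nasp, which carries H3 and H4, had a log2 fold change of -0.38 and an adjusted p of 0.0938. Nap1l1, a chaperone of H2A and H2B, had 0.46 and 0.0673, and Ssrp1, a subunit of FACT, had 0.37 and 0.0963.

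Of 30 S phase and cyclin E genes, 1 was higher and 4 were lower in KO (all genes 7.42% and 4.96%), with a median of -0.09. Ccnd2, a G1 cyclin, was higher, at 453 ± 58.2 CPM in KO and 17.0 ± 1.23 CPM in WT (log2 4.73, SE 0.18). Rpa3, a subunit of the single-strand DNA binding complex, fell by 1.51 on the log2 scale (adjusted p = 0.00970). E2f2, an S phase transcription factor, fell by 0.96 (adjusted p = 0.0129), Ccne1, which encodes cyclin E1, by 0.60 (adjusted p = 0.0318) and Mcm4, of the replicative helicase, by 0.58 (adjusted p = 0.0480). Rpa3 was called whichever library was left out. E2f2 was not called without KO library 2 (adjusted p = 0.0942), Ccne1 not without KO library 1 or KO library 2 (0.191 and 0.241), and Mcm4 was called only in the full set or without WT library 2.

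Of 13 genes of the poly(A) machinery, 0 were higher and 1 was lower (all genes 7.42% and 4.96%). Pabpc1, the cytoplasmic poly(A) binding protein, fell to 1921 ± 233 CPM in KO, against 3242 ± 183 CPM in WT (log2 -0.75, SE 0.14, adjusted p = 0.00922), and its adjusted p was 0.0583 without KO library 2. Pabpn1, its nuclear counterpart, had a log2 fold change of -0.96 and an adjusted p of 0.0835. The median log2 ratio of WT library 2 over WT library 1 was between -0.21 and 0.07 in these 5 lists, against 1.10 in the tested histone members. In the 12 histone members with a mean of 5 CPM or more it was 0.42, and the lists were not matched for level.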

How the data were processed

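Messenger RNA of 2 KO and 2 WT libraries was measured with QuantSeq 3' FWD after Trizol extraction, per the labels' protocols. The deposited values are raw counts per Ensembl identifier in 1 table, not normalized. Per the submitters' processing notes, Trim Galore and GRCm38 were used. The aligner, counting program and strand setting were not given in the sources used here.

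Symbols, biotypes and transcripts came from GENCODE vM21 (GRCm38), which lacked 181 of the 55421 identifiers. The main test was the two-sided quasi-likelihood test of edgeR 4.0.16 (R 4.3.3). It used TMM factors, the filterByExpr filter and a Benjamini-Hochberg adjusted p of 0.05 over 14427 genes. The common biological coefficient of variation was 0.198. CPM are on the TMM scale. A class level is the sum over its members, with no test. Library pairs differed by a chi-square of 8.29 per degree of freedom in KO and 13.2 in WT, and by 25.7 to 31.8 between groups. No pair thus differed by counting error alone. Whether libraries came from the same RNA or culture cannot be told from this. A count of 3 corresponds to between 0.236 and 0.302 CPM.

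The members and lists were chosen with earlier results of these data known. Named genes were any member called, the 3 members with the highest mean CPM of each class, and of each of 5 companion lists the called genes and up to 4 with the smallest p. Other members named were chosen after their values were seen. Alternatives were DESeq2 1.42.0 (size factors and test), no filter, a replicate block, small non-coding and mitochondrial genes left out, and each library left out.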

Additional observations from a re-analysis of the deposited data

How the results depend on the processing

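No histone member was called higher in KO under any alternative run, and 0 were called lower with DESeq2 size factors, the DESeq2 test, the replicate block or without either KO library. With no filter 2 were called lower (Hist1h1a and Hist1h2bc, with 4.67% of genes lower), and leaving out 1 library gave 0 to 2. The median log2 fold change of the tested members was -0.86 without WT library 1, 0.24 without WT library 2, -0.78 without KO library 1 and -0.53 without KO library 2. The log2 ratio of summed levels was -0.63 to -0.23 over all members when 1 library was left out. It was -0.79 to 0.23 for H1, -0.42 to -0.058 for H2A, -0.84 to -0.62 for H2B, -0.52 to -0.25 for H3 and -0.76 to -0.34 for H4. These sums keep Hist1h2bc, Hist1h3d and Hist1h4i, without which the groups overlapped in H2B, H3 and H4 and over all members. Over all genes the counts higher and lower in KO were 638 and 370 with the replicate block, 1590 and 1193 with no filter, and 556 to 1477 and 285 to 1011 with 1 library left out. The replicate numbers do not pair the libraries (correlation of deviations -0.070), and under the block Hist1h3c moved to 0.021. The cause of these changes was not tested.

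The sign of the log2 fold change depended on which library was left out for 33 tested members, with the lowest and highest values as follows. Hist1h1b -1.30 to 0.43, Hist1h1c -0.51 to 0.32, Hist1h1d -1.62 to 0.58, Hist1h1e -0.50 to 0.22, Hist1h2ac -1.33 to 0.030, Hist1h2ad -1.70 to 0.68. Hist1h2ae -0.027 to 0.050, Hist1h2ai -0.80 to 0.81, Hist1h2ak -0.46 to 0.070, Hist1h2an -1.57 to 0.67, Hist1h2bb -1.78 to 0.43, Hist1h2bc -1.47 to 0.45. Hist1h2be -0.95 to 0.22, Hist1h2bf -0.045 to 0.84, Hist1h2bg -1.33 to 0.44, Hist1h2bj -1.48 to 1.53, Hist1h2bk -0.997 to 0.43, Hist1h2bl -2.01 to 0.23. Hist1h2bp -1.28 to 0.34, Hist1h3a -0.85 to 0.21, Hist1h3c -0.36 to 0.41, Hist1h3d -1.14 to 0.45, Hist1h3e -1.80 to 0.75, Hist1h3g -1.35 to 0.64. Hist1h3h -0.72 to 0.12, Hist1h3i -1.70 to 0.089, Hist1h4b -0.57 to 0.058, Hist1h4c -1.09 to 0.73, Hist1h4d -1.14 to 0.19, Hist1h4n -0.86 to 0.70. Hist2h2ac -1.57 to 2.09, Hist2h3b -0.69 to 2.69, Hist4h4 -0.22 to 0.88.

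With low counts and 2 libraries a group, the 19 members that did not pass the filter could not be tested in the main fit. Calls in the companion lists also moved. Ccne1, Mcm4 and Ubn1 were lost with the block (adjusted p = 0.0552, 0.0595 and 0.0565), Mcm4 also with DESeq2 size factors (0.0526), and H2afj and H2afx were gained with the DESeq2 test (0.0246 and 0.0234).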

Other observations

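The table also held 3 rows with a histone symbol that GENCODE vM21 annotates as pseudogenes. Together they held 5 and 4 counts in KO libraries 1 and 2, against 8 and 14 counts in WT libraries 1 and 2.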
